A study of Mus musculus with 71 samples.

Results

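The fibroblast growth factor (FGF) genes described here are 6 ligands (Fgf3, Fgf4, Fgf5, Fgf8, Fgf15 and Fgf17) and the 4 signalling receptors (Fgfr1, Fgfr2, Fgfr3 and Fgfr4). They were taken by gene symbol from the 24222 genes counted in RNA sequencing of mouse embryonic stem (ES) cells, and all 10 were found. The study asked how Polycomb repressive complex 2 (PRC2), the complex that methylates lysine 27 of histone H3, shapes chromatin and expression in these cells. RNA was measured in 3 groups of 3 libraries from C57BL/6 cells. The rescue group is labelled as re-expressing wild-type EZH2, the dKO group as lacking both Ezh1 and Ezh2, which encode the alternative catalytic subunits of PRC2, and the WT group as wild type. The labels do not say whether a group is 1 clone or whether its replicates are separate cultures, so a p-value speaks only of the spread among these libraries, which may be technical. All cells were grown on gelatin in 2i, in which inhibitors of the kinases GSK3 and MEK keep ES cells naive, so the groups share a block of the MEK-ERK cascade that acts downstream of FGF receptors.

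FGF ligands are secreted proteins that bind receptor tyrosine kinases together with heparan sulfate, and the activated receptor signals through adaptors such as FRS2 to RAS, RAF, MEK and ERK. In the mouse embryo and in ES cells FGF4 is the ligand made by pluripotent cells, and its signal through FGFR1 and FGFR2 drives exit from naive pluripotency and formation of primitive endoderm. Other ligands are made later, at restricted sites of the embryo, and many such developmental genes are bound by PRC2 in ES cells. On GRCm38.p6, Fgf3 (chr7:144838612-144843348), Fgf4 (chr7:144861386-144865245) and Fgf15 (chr7:144896532-144900953) lie side by side. Fgf5 lies at chr5:98254184-98277033, Fgf8 at chr19:45736491-45742941 and Fgf17 at chr14:70636203-70642268. The receptor genes lie apart, Fgfr1 at chr8:25518759-25575718, Fgfr2 at chr7:130162451-130266808, Fgfr3 at chr5:33721724-33737068 and Fgfr4 at chr13:55152818-55168759.

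Libraries held 12457622 to 36009529 counts. Levels are CPM, read counts divided by the library total after TMM scaling, and a gene was called when the edgeR quasi-likelihood test gave a Benjamini-Hochberg adjusted p under 0.05 over the 14145 genes tested; "rose" and "fell" are used only of called genes. Ezh1 was at 2.33 to 3.41 CPM in rescue, 1.80 to 2.33 CPM in dKO and 47.9 to 53.3 CPM in WT, and Ezh2 at 549 to 576, 191 to 214 and 308 to 313 CPM in the same groups. Ezh1 thus separates WT from the others. Ezh2 was lowest in dKO but not absent, and whether its counted reads lie outside the deleted part of the gene was not analysed here. Among replicates, dKO replicate 3 stood apart: over genes its chi-square per degree of freedom against the other dKO libraries was 22.5 and 22.6, where dKO replicates 1 and 2 gave 5.44. Rescue replicate 2 (11.4 and 10.3, where rescue replicates 1 and 3 gave 2.99) and WT replicate 3 (6.15 and 6.72, where WT replicates 1 and 2 gave 2.15) also differed more from their groups than the remaining pair did. Results that rest on 1 library are given with and without it. ES cell markers were present in every library, their 12 genes summing to 9480 to 9564 CPM in rescue, 6995 to 7083 CPM in dKO and 7947 to 8153 CPM in WT. Of the 12, 2 rose and 8 fell in dKO against WT, and 8 rose and 2 fell in rescue against WT. Over all tested genes 33.7% rose and 31.0% fell in the first comparison, and 26.8% and 27.3% in the second.

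The FGF genes moved in both directions. In dKO against WT, Fgf3, Fgf15, Fgfr3 and Fgfr4 rose, Fgf17 and Fgfr1 fell, and Fgf4 and Fgfr2 did not pass. Thus 6 of the 8 tested genes were called, where 64.7% of all tested genes were called, 33.7% higher and 31.0% lower, so the share of called FGF genes lies near that of all genes. Their median log2 fold change was 0.57, beside 0.00 over all tested genes. In rescue against dKO, Fgf17 rose and Fgf3, Fgf15, Fgfr2, Fgfr3 and Fgfr4 fell, again 6 of 8, against 70.3% of all tested genes (32.1% higher and 38.2% lower), with a median of -1.08 beside -0.04. Without dKO replicate 3 the counts stayed at 4 higher and 2 lower in dKO against WT, and were 2 higher, with Fgfr1 added, and 5 lower in rescue against dKO. In rescue against WT, Fgf3, Fgfr1 and Fgfr3 fell and 0 rose by edgeR, against 54.1% of all tested genes (26.8% higher and 27.3% lower), with a median of -0.36 beside 0.00. The count of 0 was also found at an unadjusted p under 0.05 and with DESeq2. The libraries of the compared groups did not overlap for 6 of the 8 genes in dKO against WT (68.0% of all tested genes), 6 in rescue against dKO (71.7%) and 4 in rescue against WT (65.3%). In bulk RNA, fewer cells of a type and less RNA per cell cannot be told apart. Fgf5 and Fgf8 were below the filter on low counts. Fgf15 passed the filter through dKO alone, and Fgfr3 through dKO with 1 WT library above the filter level of 0.45 CPM, while Fgf17 passed through rescue and WT, so a difference in these genes was in part a condition of their being tested. The 3 comparisons share libraries and are not independent.

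**Figure D1:**
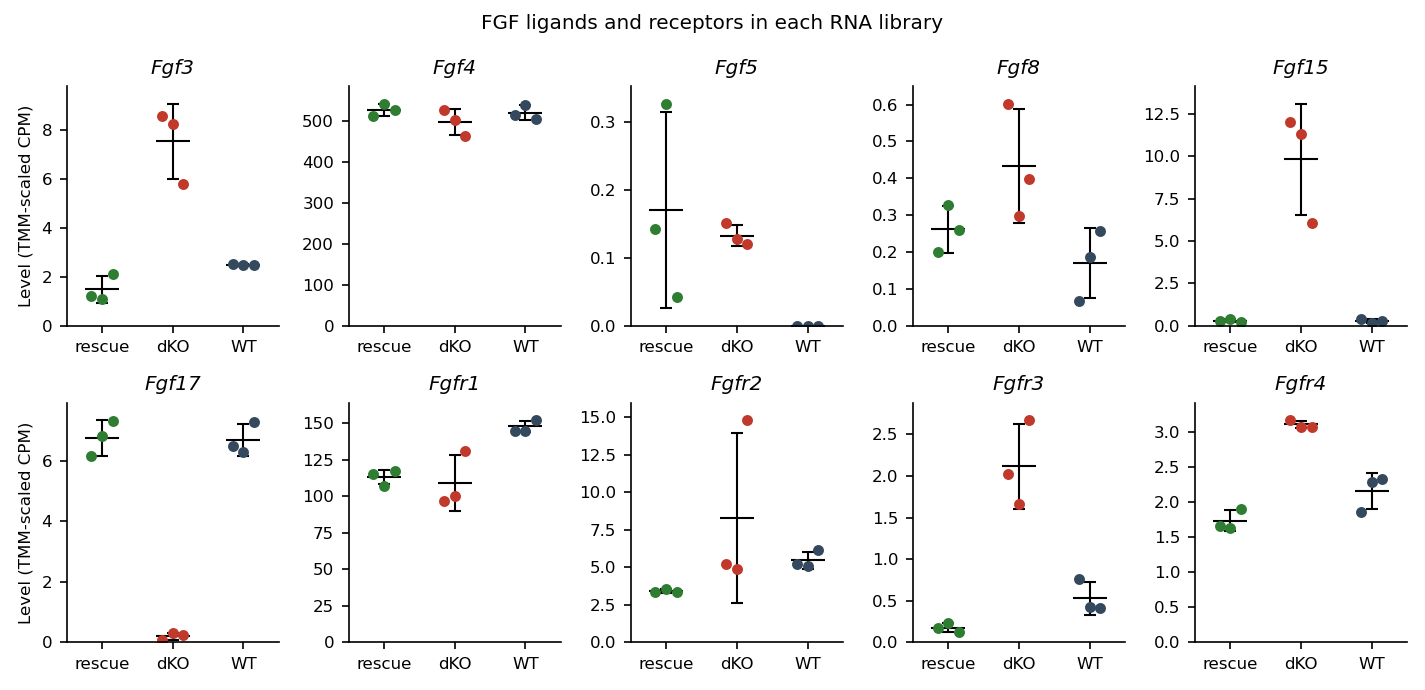
Level of each FGF ligand and receptor in TMM-scaled CPM (linear axes from 0, a separate scale for each gene) in the 3 rescue, 3 dKO and 3 WT libraries. Points are libraries, and the bar with whiskers is the mean ± SD. Fgf17 is near 0 in dKO, Fgf3, Fgf15 and Fgfr3 are highest in dKO, and Fgf4 lies between 462 and 541 CPM in all 9 libraries.

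Fgf4, the ligand of pluripotent cells, was at 512, 541 and 526 CPM in rescue, 526, 501 and 462 CPM in dKO and 514, 539 and 503 CPM in WT. The groups overlapped, with the lowest library being dKO replicate 3. The log2 fold change was -0.06 ± 0.0588 (SE) in dKO against WT (edgeR adjusted p = 0.366), 0.08 ± 0.0587 in rescue against dKO (0.219) and 0.02 ± 0.0587 in rescue against WT (0.788). With 41666 summed counts in rescue, 30322 in dKO and 28787 in WT, Fgf4 had the most counts of the 10 genes, and its standard errors were the smallest among the 8 tested.

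Fgf17, a ligand of the FGF8 subfamily that acts in patterning of the brain, had the largest fall in dKO among the 8 tested genes. It was at 6.14, 6.82 and 7.30 CPM in rescue, 0.0753, 0.298 and 0.239 CPM in dKO and 6.47, 6.29 and 7.27 CPM in WT. All dKO libraries were far below the others, holding 1, 7 and 6 counts, while rescue and WT overlapped. Fgf17 fell by 4.85 ± 0.245 on the log2 scale in dKO against WT (edgeR adjusted p = 1.22e-08) and rose by 4.87 ± 0.241 in rescue against dKO (8.83e-09). In rescue against WT the difference was 0.01 ± 0.144 (0.975). Fgf17 lies on chromosome 14, where the 63 tested genes within 5 Mb had a median log2 fold change of -0.80 in rescue against WT, -1.15 in rescue against dKO and 0.20 in dKO against WT, and the whole chromosome -0.85, -0.79 and -0.06 in the same comparisons, beside medians of 0.00, -0.04 and 0.00 over all tested genes. The part of this regional shift in the level of Fgf17 in rescue was not tested. Its closest neighbour Dmtn, an actin-bundling protein gene that ends just before it, fell by 1.34 in dKO against WT (edgeR adjusted p = 2e-07), rose by 0.66 in rescue against dKO (5.67e-05) and fell by 0.68 in rescue against WT (8.5e-05). Of 12 tested genes within 200 kb, 8 rose and 2 fell in dKO against WT, most of them thus against the direction of Fgf17. In rescue against dKO 1 rose and 10 fell, in a comparison where the whole chromosome stood at -0.79. Over all tested genes 33.7% rose and 31.0% fell in the former comparison, and 32.1% and 38.2% in the latter. Piwil2, a gene of the piRNA pathway, rose by 2.78 in dKO against WT (2.19e-09) and fell by 3.07 in rescue against dKO (1.05e-09). The lncRNA Gm38605 overlaps 3.92 kb of Fgf17 in the annotation, and the library kit does not mark strand, so reads of the gene pair cannot be told apart here.

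Fgf15, the mouse counterpart of human FGF19, is known as a gut hormone that restrains bile acid synthesis and is also made in the embryonic brain. It was at 0.314, 0.420 and 0.216 CPM in rescue, 12.0, 11.3 and 6.07 CPM in dKO and 0.413, 0.186 and 0.309 CPM in WT. The dKO libraries were all higher than any other, with dKO replicate 3 the lowest of them. Fgf15 rose by 5.04 ± 0.370 on the log2 scale in dKO against WT (edgeR adjusted p = 2.7e-07), and by 5.30 without dKO replicate 3. Summed counts were 578 in dKO and 16 in WT, a ratio of 35.6 after scaling to total counts (exact 95% interval 21.7 to 62.7, for counting error only). In rescue against dKO it fell by 4.92 ± 0.339 (1.4e-07), and rescue and WT differed by 0.11 ± 0.600 (0.887). The lncRNA Gm26793 overlaps 3.16 kb of Fgf15 and cannot be told apart from it in these counts.

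Fgf3, a ligand of inner ear and tail development, was at 1.23, 1.12 and 2.12 CPM in rescue, 8.58, 8.27 and 5.79 CPM in dKO and 2.55, 2.47 and 2.47 CPM in WT. The 3 groups did not overlap, with dKO highest and rescue lowest. Fgf3 rose by 1.58 ± 0.224 in dKO against WT (edgeR adjusted p = 6.08e-05) and fell by 2.34 ± 0.230 in rescue against dKO (2.4e-06). Its fall of 0.76 ± 0.258 in rescue against WT (0.0262) was lost without WT replicate 1 (0.0611), 2 (0.0637) or 3 (0.0614) and without rescue replicate 1 (0.111) or 2 (0.0843).

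Fgf5, a marker of the primed epiblast, had 5, 7 and 1 counts in rescue, 2, 3 and 3 counts in dKO and 0 in each WT library, where a count of 0 allows up to 0.135 to 0.200 CPM. With the WT group set to 3 counts in all, the ratio to WT was 3.02 for rescue and 2.63 for dKO. These ratios leave out the counting error of the few rescue and dKO counts, so they are not lower limits. Levels of 0.0432 to 0.327 CPM in rescue and 0.120 to 0.151 CPM in dKO reached into or below what a count of 0 allows in WT. With no filter the edgeR adjusted p was 0.0153 in rescue against WT and 0.0259 in dKO against WT, from 13 and 8 counts in all. Fgf8, a ligand of gastrulation and limb and brain patterning, had 20 summed counts in rescue, 25 in dKO and 10 in WT. The ratio of dKO to WT was 2.46 (exact 95% interval 1.14 to 5.75, for counting error only), with an edgeR adjusted p of 0.0806 with no filter. Both ligands were close to the limit of detection in all groups. The 8 epiblast and formative marker genes other than Fgf5 summed to 225 to 233 CPM in rescue, 231 to 269 CPM in dKO and 241 to 254 CPM in WT. Of these 8, 3 were higher and 4 lower both in dKO against WT and in rescue against WT. The shares over all tested genes were 33.7% higher and 31.0% lower in the former, and 26.8% and 27.3% in the latter.

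Among the receptors, Fgfr1, the main FGF receptor of pluripotent cells, was at 115, 107 and 117 CPM in rescue, 96.6, 100.5 and 131 CPM in dKO and 145, 145 and 152 CPM in WT. WT was above all other libraries, and rescue lay within the range of dKO. Fgfr1 fell by 0.43 ± 0.0975 in dKO against WT (edgeR adjusted p = 0.00214) and by 0.39 ± 0.0970 in rescue against WT (0.00542). In rescue against dKO the difference was 0.04 ± 0.0972 (0.71), but without dKO replicate 3, the highest dKO library, it was 0.20 and passed (edgeR adjusted p = 0.00381). The annotated lncRNAs Gm31288 and Gm16159 lie within Fgfr1, and Gm16159 held 5 summed counts in rescue, 7 in dKO and 2 in WT.

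Fgfr2, the receptor associated with primitive endoderm, was at 3.34, 3.59 and 3.37 CPM in rescue, 5.20, 4.90 and 14.8 CPM in dKO and 5.23, 5.08 and 6.13 CPM in WT. The high dKO mean rests on replicate 3, and the other dKO libraries lie at or below WT. Accordingly dKO against WT gave 0.64 ± 0.363 (edgeR adjusted p = 0.146), but 0.93 without dKO replicate 2 (0.0275) and -0.13 without dKO replicate 3 (0.426). Fgfr2 fell by 1.31 ± 0.368 in rescue against dKO (0.00795), and by 0.55 without dKO replicate 3 (0.00267). In rescue against WT the 3 rescue libraries were all lower, with a difference of -0.68 ± 0.385 (0.162) that passed when only these 2 groups entered the fit (-0.67, edgeR adjusted p = 0.000487).

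Some endoderm and trophoblast markers, picked after their values were seen, were also highest in dKO replicate 3. Dab2, an endocytic adaptor of endoderm, was at 8.43, 9.21 and 26.5 CPM in dKO replicates 1, 2 and 3, Sox7 at 6.02, 4.86 and 10.7 CPM and Hand1 at 2.56, 1.88 and 6.07 CPM. Other primitive endoderm markers went the other way: Gata4 was at 26.9, 25.5 and 16 CPM and Col4a1 at 124, 132 and 105 CPM. Of the whole lists, 7 of 10 trophoblast and 4 of 10 primitive endoderm markers were highest in replicate 3 among the dKO libraries. So were 5 of 12 ES cell, 5 of 10 primitive streak and mesoderm and 3 of 8 epiblast and formative markers. For the neural and the fibroblast list it was 3 of 10 each. The share over all genes was not determined here. The trophoblast markers summed to 281, 277 and 298 CPM in dKO replicates 1, 2 and 3, and the primitive endoderm markers to 241, 258 and 230 CPM. Their part in the Fgfr2 level was not tested.

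Fgfr3, known for restraining bone growth, was at 0.171, 0.233 and 0.130 CPM in rescue, 2.03, 1.66 and 2.67 CPM in dKO and 0.757, 0.420 and 0.412 CPM in WT. The groups did not overlap, with the order dKO, WT, rescue. Fgfr3 rose by 2.06 ± 0.307 in dKO against WT (edgeR adjusted p = 9.26e-05) and fell by 3.56 ± 0.344 in rescue against dKO (2.11e-06). Its fall of 1.5 ± 0.448 in rescue against WT (0.0137) rests on 14 summed counts against 28 and was lost without WT replicate 1 (0.0587).

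Fgfr4, the receptor that answers FGF15 in liver together with the coreceptor beta-Klotho, was at 1.66, 1.63 and 1.90 CPM in rescue, 3.16, 3.07 and 3.07 CPM in dKO and 1.86, 2.28 and 2.32 CPM in WT. The dKO libraries were highest and the rescue and WT ranges overlapped. Fgfr4 rose by 0.51 ± 0.164 in dKO against WT (edgeR adjusted p = 0.016), a call lost without WT replicate 1 (0.0634) and with DESeq2 (0.0573). It fell by 0.84 ± 0.161 in rescue against dKO (0.00054), and the difference of -0.33 ± 0.170 in rescue against WT did not pass (0.121).

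**Figure D2:**
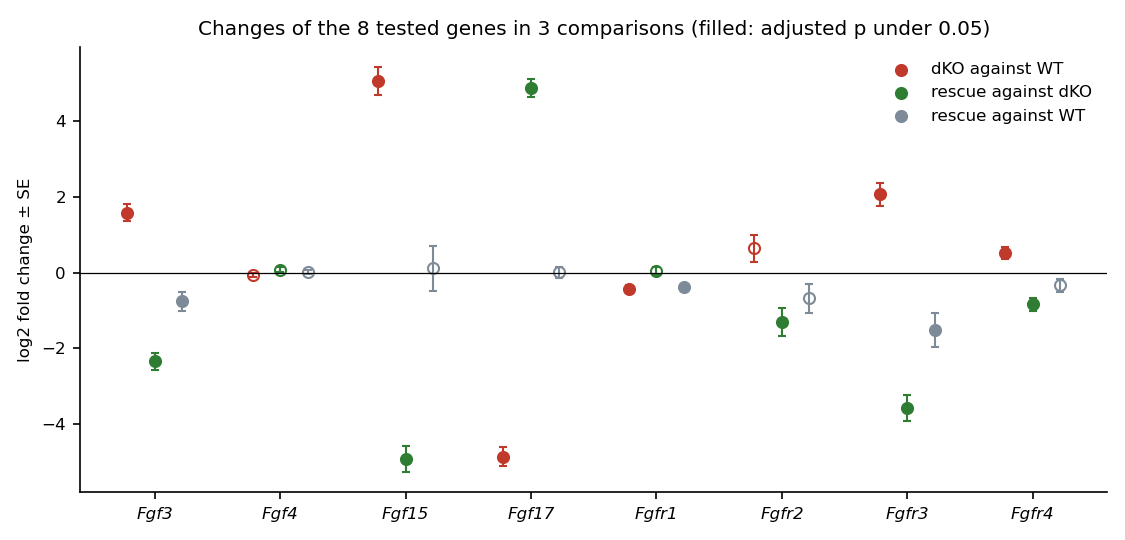
Log2 fold change ± SE of the 8 tested genes in dKO against WT, rescue against dKO and rescue against WT (edgeR). Filled points passed an adjusted p of 0.05 and open points did not. Fgf15 (5.04) and Fgf17 (-4.85) are the extremes in dKO against WT, and the points of Fgf4 lie between -0.06 and 0.08.

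Markers of other cell types also differed between the groups. The 10 primitive endoderm markers summed to 85.0 to 92.6 CPM in rescue, 230 to 258 CPM in dKO and 79.9 to 83.4 CPM in WT, and 7 of the 8 tested rose in dKO against WT. Col4a1, at 105 to 132 CPM in dKO and 8.40 to 9.46 CPM in WT, is the largest part of the dKO sum. Neural markers summed to 210 to 217, 224 to 254 and 83.5 to 94.6 CPM, and those of primitive streak and mesoderm to 16.3 to 17.1, 35.3 to 38.0 and 10.5 to 11.9 CPM, in rescue, dKO and WT. Of the 6 tested neural markers 4 rose and 1 fell in dKO against WT, and of the 7 tested mesoderm markers 6 rose and 1 fell. Beside the counts of all these marker lists, 33.7% of all tested genes rose and 31.0% fell in dKO against WT. The neural sums rest mainly on Tubb3 and Olig2 in rescue and on Nes and Olig2 in dKO. Trophoblast markers summed to 173 to 179 CPM in rescue, 277 to 298 CPM in dKO and 224 to 238 CPM in WT. In dKO against WT 6 of 10 were higher and 2 lower. Among them Hand1 and Elf5, at most at 0.103 and 0.0857 CPM in rescue and WT, passed the filter on low counts through dKO alone. For such markers a difference was in part a condition of their being tested. Fibroblast markers summed to 147 to 152 CPM in rescue, 74.3 to 93.6 CPM in dKO and 338 to 358 CPM in WT, sums in which Vim is the main part in rescue and WT. Of the 6 tested fibroblast markers 5 rose and 1 fell in dKO against WT, while Lum was at 0 in every library and Col3a1, Dcn and Postn at or near 0. The part of these genes in the higher Fgf3, Fgf15, Fgfr3 and Fgfr4 levels of dKO was not tested.

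Suz12 is the scaffold subunit of PRC2, and 7480 Suz12 peaks deposited for wild-type 129B6F1 ES cells, a strain other than that of the RNA libraries, give its positions in 1 sample. A peak lay within 1 kb of 8 of the 10 genes, against 24.4% of the 24088 genes that could be placed on the genome (31.5% of the tested ones). The exceptions were Fgf4, whose nearest peak was 21.2 kb away, and Fgf17, at 57.8 kb. Fgf3, Fgf15, Fgfr3 and Fgfr4, the genes that rose in dKO, all had a peak, and so did Fgfr1, which fell, and Fgfr2, which did not pass. The widest peaks, of 4250 bp at the start of Fgfr2 (chr7:130263352-130267601) and 3904 bp over one end of Fgf8 (chr19:45740465-45744368), were wider, in that order, than 97% and 96.1% of all peaks. The 2900 bp peak at Fgfr3 (chr5:33721404-33724303) held both annotated start sites, and peaks of 2139 bp and 2190 bp held those of Fgf3 (chr7:144838088-144840226) and Fgf5 (chr5:98253798-98255987). Fgf15 had a 1446 bp peak (chr7:144896427-144897872), Fgfr1 one of 1100 bp (chr8:25518649-25519748) and Fgfr4 one of 837 bp (chr13:55152445-55153281), below the median width of 1032 bp. Peaks have no score or replicate here, and coordinates are 1-based on mm10.

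Promoter sequences (RefSeq, GRCm38.p6) were at hand for Fgf3, Fgf4, Fgf5, Fgfr2, Fgfr3 and Fgfr4. PRC2 in ES cells is mostly found at CpG-rich promoters, so the 250 bases before the start site are shown for 4 genes that differ in CpG content and in the Suz12 peak, 5′ to 3′ on the gene's strand, with each CG in capitals (CG reads the same on both strands):
Fgf3, chr7:144838362-144838611, + strand: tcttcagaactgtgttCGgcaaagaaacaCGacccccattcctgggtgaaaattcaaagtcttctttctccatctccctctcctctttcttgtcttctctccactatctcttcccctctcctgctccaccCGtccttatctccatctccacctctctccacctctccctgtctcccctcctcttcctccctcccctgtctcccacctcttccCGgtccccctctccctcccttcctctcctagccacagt
Fgf4, chr7:144861136-144861385, + strand: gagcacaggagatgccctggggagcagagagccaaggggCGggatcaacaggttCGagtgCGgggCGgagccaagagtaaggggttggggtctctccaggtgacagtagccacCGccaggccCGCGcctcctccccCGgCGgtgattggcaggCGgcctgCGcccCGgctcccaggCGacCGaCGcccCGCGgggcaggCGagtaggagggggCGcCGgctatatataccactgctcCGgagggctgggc
Fgfr2, chr7:130266809-130267058, - strand: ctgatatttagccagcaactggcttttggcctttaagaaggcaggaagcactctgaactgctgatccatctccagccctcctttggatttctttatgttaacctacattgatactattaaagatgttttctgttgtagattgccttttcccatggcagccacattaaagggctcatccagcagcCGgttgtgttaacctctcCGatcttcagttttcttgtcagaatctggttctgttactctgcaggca
Fgfr3, chr5:33721474-33721723, + strand: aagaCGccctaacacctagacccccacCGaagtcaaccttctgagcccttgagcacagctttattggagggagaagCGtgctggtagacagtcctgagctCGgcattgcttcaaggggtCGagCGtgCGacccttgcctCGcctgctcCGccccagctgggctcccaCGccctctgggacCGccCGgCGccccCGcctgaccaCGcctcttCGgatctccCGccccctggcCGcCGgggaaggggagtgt

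The window of Fgf4 lay outside any Suz12 peak and held 21 CG, more than 83.7% of the 32851 windows of this length in the table, whose median was 6 and of which 92.1% held at least 1. The windows of Fgf3 and Fgfr2 lay wholly within a peak and held 4 and 2 CG, more than 37.8% and 18.8% of windows. The first Fgfr3 window, also wholly within a peak, held 19 CG, its second 24, the Fgf5 window 24 and the Fgfr4 window 15. CpG content of this window thus did not separate the promoters with a peak from that of Fgf4, the only one of these 6 genes without a peak. The peaks at Fgf3 and Fgfr2 reach past the start site into the gene, where CG were not counted.

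Fgf3, Fgf4 and Fgf15 are neighbours on chromosome 7 and span 62.3 kb, with 18 kb between Fgf3 and Fgf4 and 31.3 kb between Fgf4 and Fgf15. The genes on either side of Fgf4 rose in dKO, whereas Fgf4 between them stood at -0.06, and each flanking gene carries a Suz12 peak. Beyond Fgf15, Oraov1 had a log2 fold change of -0.23 in dKO against WT (edgeR adjusted p = 0.148) and Ccnd1, the cyclin D1 gene, of 0.11 (0.121). Farther out on that side, Tpcn2 rose by 0.7 (0.000205). Ano1, a chloride channel gene on the other side, rose by 2.29 (3.51e-06). The 89 tested genes within 5 Mb, these 3 left out, had a median of 0.18 in dKO against WT and -0.14 in rescue against dKO. For the other FGF genes the median of the neighbours within 5 Mb lay between -0.17 and 0.19 in all comparisons, apart from Fgf17 as given above.

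**Figure D3:**
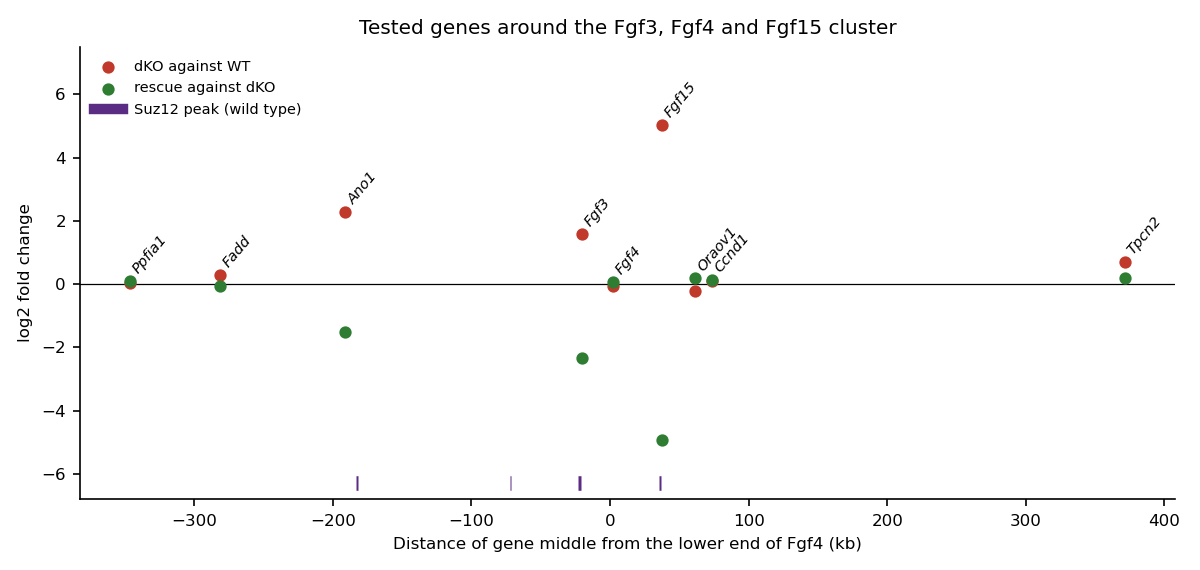
Log2 fold change in dKO against WT and in rescue against dKO (edgeR) of the tested genes within 300 kb of the Fgf3, Fgf4 and Fgf15 cluster, by the distance of each gene's middle from the lower end of Fgf4 in kb. Purple bars mark Suz12 peaks of wild-type cells. Fgf15 and Fgf3 stand at 5.04 and 1.58 in dKO against WT, and Fgf4 at -0.06.

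The genes whose profile over the 9 libraries was most like that of Fgf17, by Pearson's r of log2(CPM + 0.5) among 11209 genes with a mean of at least 2 CPM, were C2cd5, Cd80, Ccdc141, Csrnp3 (r = 0.998 each) and Rac2 (0.997). Cd80, a T-cell co-stimulator, averaged 11.6 ± 0.220 CPM in rescue, 0.631 ± 0.123 CPM in dKO cells and 12.2 ± 1.20 CPM in WT cells (SD, n = 3). Pearson's r leaves out the size of a change: C2cd5 averaged 72.8 ± 1.76 CPM in rescue, 34.1 ± 2.04 CPM in dKO cells and 72.8 ± 1.14 CPM in WT cells. In all, 528 genes reached an r of 0.95. For Fgfr3 they were Ugp2 (0.994), Ndrg3 and Tmem117 (0.991 each) and Cadm4 and Lrrc8b (0.988 each), of 229 genes that reached 0.95. Ugp2, an enzyme of UDP-glucose synthesis, averaged 41.3 ± 0.764 CPM in rescue, 88.2 ± 9.09 CPM in dKO cells and 54.0 ± 2.53 CPM in WT cells (SD, n = 3).

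The pathway lists are described by their counts, and each comparison's share of called genes over all tested genes is given above. Of 12 other secreted FGF ligands 4 were tested. In dKO against WT 3 rose and 1 fell, with a median of 1.81 beside 0.00 over all tested genes. Of these 4, Fgf23 was above the filter level of 0.45 CPM only in dKO and Fgf21 only in WT. Fgf18 was above it only in some rescue and dKO libraries. A difference in these genes was thus in part a condition of their being tested. Without dKO replicate 3, 3 were tested, of which 2 rose and 1 fell (median 1.59). Fgf10, a ligand of lung and limb budding, was at 30.3 ± 0.310 CPM in rescue, 18.2 ± 1.30 CPM in dKO cells and 5.78 ± 0.671 CPM in WT cells (SD, n = 3). Unlike Fgf3 and Fgf15 it rose both in dKO against WT (1.65 ± 0.102, edgeR adjusted p = 6.34e-08) and in rescue against dKO (0.73 ± 0.0886, 1.4e-05). The hormone gene Fgf23 rose by 2.47 ± 0.398 in dKO against WT (0.000172) and fell by 3.72 ± 0.433 in rescue against dKO (1.01e-05), and Fgf21, a metabolic hormone gene, fell by 1.65 ± 0.322 in dKO against WT (0.000709). The FGF homologous factors act inside the cell and do not signal through FGF receptors, and 2 of these 4 genes were tested. Fgf13 and Fgf11 rose by 2.77 and 0.71 in dKO against WT (edgeR adjusted p = 1.66e-07 and 0.000289), and in rescue against dKO Fgf13 fell by 1.56 (3.79e-06) while Fgf11 rose by 0.57 (0.000582).

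Of 9 tested coreceptor and binding protein genes, 2 rose and 4 fell in dKO against WT (median -0.31), and 5 rose and 3 fell in rescue against dKO (median 0.77, beside -0.04 over all tested genes). Flrt3, a membrane protein that binds FGF receptors, was at 19.3 ± 1.09 CPM in rescue, 3.53 ± 0.199 CPM in dKO cells and 16.4 ± 1.29 CPM in WT cells (SD, n = 3), and its relative Flrt1 at 0.537 ± 0.106 CPM in rescue, 5.03 ± 1.15 CPM in dKO and 0.379 ± 0.108 CPM in WT. Fgfrl1, a receptor that lacks the kinase domain, did not pass in dKO against WT (-0.13 ± 0.102, edgeR adjusted p = 0.265) and fell by 1.26 ± 0.107 in rescue against WT (2.41e-06). Of 23 tested heparan sulfate genes 12 rose and 4 fell in dKO against WT (median 0.16), and 4 rose and 17 fell in rescue against dKO (median -0.60). The proteoglycan Sdc3 rose by 2.44 in dKO against WT (edgeR adjusted p = 1.4e-09), Gpc1 by 1.92 (1.06e-07), and the sulfatase Sulf1, which trims heparan sulfate, fell by 2.62 (5.71e-09). The perlecan gene Hspg2 was at 0.01 ± 0.145 (0.95).

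Of 22 genes of receptor adaptors and the MAPK cascade, 2 rose, 9 fell and 11 did not pass in dKO against WT (median -0.11), and 9 rose, 5 fell and 8 did not pass in rescue against dKO (median 0.14). The adaptor Shc1 fell by 0.86 ± 0.0659 in dKO against WT (edgeR adjusted p = 3.58e-07). The RAS exchange factor Sos2 rose by 0.77 ± 0.0886 (1.14e-05), and the docking protein Frs3 stood at 0.00 ± 0.156 (0.983).

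Feedback inhibitors and ERK target genes are transcribed in response to FGF receptor signals, though MEK is inhibited in this medium. Of 17 tested, 5 rose, 7 fell and 5 did not pass in dKO against WT (median -0.26), and 11 rose, 3 fell and 3 did not pass in rescue against dKO (median 1.27). In rescue against WT 12 rose, 2 fell and 3 did not pass (median 0.68, beside 0.00 over all tested genes, of which 26.8% rose). The 2 that fell were Fos (-3.17 ± 0.684, edgeR adjusted p = 0.00483) and Spry2 (-0.64 ± 0.113, 0.00059). Fos also fell in rescue against dKO (-4.69 ± 0.661, 0.000273), where Spry2 did not pass (-0.13 ± 0.114, 0.315). The ETS factor Etv5 was at 246 ± 9.67 CPM in rescue, 80.2 ± 10.1 CPM in dKO cells and 172 ± 8.92 CPM in WT cells (SD, n = 3). Il17rd, an inhibitor of FGF receptor signalling also called Sef, was at 114 ± 7.5 CPM in rescue, 42.1 ± 6.26 CPM in dKO and 55.1 ± 2.57 CPM in WT. Myc was at 7.35 ± 0.376 CPM in rescue, 0.838 ± 0.0738 CPM in dKO and 1.32 ± 0.0744 CPM in WT. The ERK phosphatase gene Dusp6 fell by 1.16 ± 0.133 in dKO against WT (edgeR adjusted p = 1.05e-05). Ier3, among the 5 genes that went the other way there, rose by 1.14 ± 0.139 (1.79e-05). Spry1 did not pass in any comparison (0.03, 0.03 and 0.07). Without dKO replicate 3, an alternative chosen after the data were seen, the list counts were 4 higher and 9 lower in dKO against WT (median -0.51) and 11 higher and 3 lower in rescue against dKO (median 1.49).

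**Figure D4:**
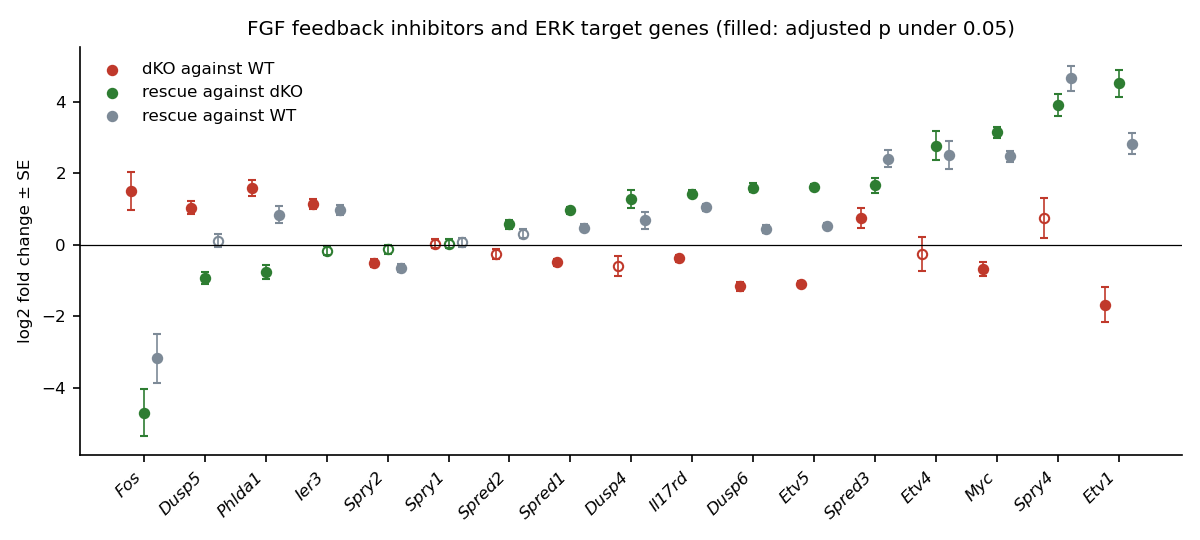
Log2 fold change ± SE (edgeR) of the 17 tested FGF feedback inhibitors and ERK target genes, ordered by rescue against dKO. Filled points passed an adjusted p of 0.05 and open points did not. Etv5, Myc, Spry4 and Il17rd are above 0 in rescue against dKO and in rescue against WT, Fos and Spry2 are below 0 in both, and Spry1 stays near 0.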

How the data were processed

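Counts of reads per gene symbol, whole numbers without normalization, were deposited by the authors for each of 9 polyA RNA libraries. Trimmomatic, STAR 2.4.0, HTSeq and the mm10 build are named per the submitters' processing notes, and the TruSeq RNA Library Prep Kit v2 per the labels' protocols; that kit leaves strand unmarked. For the counting mode and annotation: not given in the sources used here. The table holds 0 entries without a gene name. Other values used are the Suz12 peak coordinates deposited by the authors, without score. Their caller: not given in the sources used here. The other 61 ChIP samples were not analysed here.

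One edgeR 4.0.16 fit (R 4.3.3) over all 9 libraries used TMM, filterByExpr, glmQLFit with robust estimation and glmQLFTest, two-sided, with 6 residual degrees of freedom. Levels divide counts by TMM-scaled library size. SE is the log2 fold change divided by the root of F. Since counts were not divided by transcript length, levels were not compared between genes. The script was checked on simulated data. Alternatives were DESeq2 1.42.0, DESeq2's size factors, other filters, fits of 2 groups, a replicate block and each library left out. A count of 0 allows up to 0.0833 to 0.241 CPM (3 counts), and intervals cover counting error only. Genes were placed by symbol (22858) or synonym (1230) on GRCm38.p6, and 134 were not. The members and the gene lists were chosen with earlier results of these data known. All 10 members are named; from each list up to 3 genes with the smallest adjusted p and the 1 with the largest that did not pass could be named, Ezh1 and Ezh2 as the targeted genes, and the 5 genes with the highest r to the ligand and the receptor of smallest adjusted p in dKO against WT. Marker genes and genes named by position fall outside that rule. So do Fos and Spry2, named as the feedback and ERK target genes that fell in rescue against WT.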

Additional observations from a re-analysis of the deposited data

How the results depend on the processing

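Of 283 values of single FGF genes under other settings 262 kept their direction and side of the threshold. The calls lost or gained are given beside each gene above. Directions that reversed were those of differences that did not pass: with a mean of at least 2 CPM, Fgf4 in dKO against WT (0.00) and Fgfr1 in rescue against dKO (-0.01); Fgfr1 in rescue against dKO without dKO replicate 1 (-0.04) or 2 (-0.02), range -0.04 to 0.20 over left-out libraries; Fgfr2 in dKO against WT without dKO replicate 3 (-0.13, range -0.13 to 0.93); and in rescue against WT, Fgf15 (range -0.17 to 0.35) and Fgf17 (range -0.05 to 0.08) when 1 library was left out. The number of FGF genes higher ranged from 3 to 5 in dKO against WT. It was 3 with DESeq2, without WT replicate 1, and with a mean of at least 2 CPM, where Fgfr3 was not tested. It was 5 with no filter on low counts and without dKO replicate 2. In rescue against dKO the number higher ranged from 1 to 2, where leaving out dKO replicate 3 added Fgfr1. The number lower ranged from 1 to 3 in rescue against WT, with 1 without WT replicate 1. With no filter on low counts 1 FGF gene, Fgf5, was higher in rescue against WT. Counts over all genes stayed within 1.5 times of the main ones under each setting, and 7 rather than 8 FGF genes had a Suz12 peak when only peaks wider than the median counted. With the replicate number as a block 4750 genes were higher and 4398 lower in dKO against WT, and no call of an FGF gene changed in any comparison. Deviations of same-numbered libraries correlated between -0.112 and 0.201, so the numbers were not taken to pair the samples. Depth limits Fgf5, Fgf8 and the low levels of Fgf15 and Fgfr3 in rescue and WT and of Fgf17 in dKO.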
